A study of Danio rerio with 4 samples.

Results

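Zebrafish chromosomes were examined here at their ends. Peaks of H3K27ac, a histone mark of active enhancers and promoters, were merged across 4 peak lists wherever they shared at least 1 bp. The merged sites that lay fully within 1 Mb of either end of a chromosome were then taken. The ends of a chromosome were the lowest start and the highest end of any peak on it, and chromosome 4 was left out. By this rule 3014 end sites were found, 1501 at the lower-numbered and 1513 at the higher-numbered ends, among 42926 sites on 24 chromosomes and 51678 sites in the whole series. Position and not signal chose them, except that by this rule each end begins with a site. Their number, width and signal were otherwise free to differ from those of the 39912 sites elsewhere on the same chromosomes. A further 14 sites lay across the 1 Mb line and were counted elsewhere.

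The mark was profiled by CUT&Tag, in which an antibody brings a transposase to the chromatin that carries the mark, so that the DNA there is cut, tagged and sequenced. The cells were noncardiomyocytes (nonCMs) of the injury area of adult hearts, 7 days after apex resection, with 2 libraries each of *Epi/FB:dnAP-1* and control hearts, which the study calls biological duplicates. *Epi/FB:dnAP-1* fish (FB:dnAP-1 in the labels) carried a *ubb:loxp-dsRed-loxp-Flag-dnAP-1* transgene together with *TgBAC*(*tcf21:Cre-ERT2*), and 4-hydroxytamoxifen switched on a dominant-negative form of AP-1 in the *tcf21* lineage of epicardial cells and fibroblasts (Epi/FBs). By the methods, controls of the inducible lines were double transgenic fish given ethanol vehicle, whereas the labels of these 2 libraries give the genotype as CTRL and carry WT in their titles. Whether the control fish bore the transgenes is thus not settled. Cre was active only in *tcf21*-expressing cells, but all nonCMs of the injury area entered the libraries, so that a change in the cells present and a change of the mark within Epi/FBs cannot be told apart. The labelled cell type could not be checked on markers, because only 1 of 19 marker genes, *wt1b*, was placed by the list of open chromatin regions used here. That list holds only regions of Epi/FBs that overlap known candidate enhancers of regeneration, and no site covered the region of *wt1b*.

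H3K27ac is set by acetyltransferases of the CBP and p300 family at nucleosomes beside active regulatory DNA, and AP-1, a dimer of Fos and Jun family proteins, recruits such enzymes after injury and stress. The ends of vertebrate chromosomes are capped by telomere repeats, and the subtelomeric sequence next to them is often rich in repeats and in duplicated genes. In several vertebrates, genes and open chromatin are spread unevenly between chromosome ends and middles.

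Sites were close to double as dense at the ends as elsewhere. The 48 end regions made up 3.79% of the length of these chromosomes and held 7.02% of their sites, 62.8 sites per Mb against 32.8 elsewhere, a ratio of 1.92. In the single lists, *Epi/FB:dnAP-1* replicates 1 and 2 had 46.4 and 37.4 sites per Mb at the ends against 21.9 and 19.9 elsewhere. Control replicates 1 and 2 had 41.7 and 38.8 against 19.8 and 19.1. The ratio was 2.11 and 1.88 for *Epi/FB:dnAP-1* versus 2.11 and 2.03 for the controls, so every library showed the excess and the groups overlapped. Its mean was 2.03 ± 0.11 (SD, n = 4; two-sided exact permutation test with sign flips of the log2 ratio, p = 0.13, the smallest p that 4 libraries allow). The group means differed by -0.0738 (two-sided exact permutation test, p = 1, where 2 libraries against 2 allow no p below 0.33).

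The density fell steadily over the first 1 Mb. It was 76.3 sites per Mb in the outermost 250 kb, then 67.5, 57.1 and 51.5 in the next bins of 250 kb. Just outside the line, from 1 to 1.25 Mb, it was 43.2, and it was 36.7 from 1.5 to 1.75 Mb and 32.4 beyond 5 Mb. The rule thus cut through a gradient and not at a step. All 4 libraries followed it, from 59.8, 46.8, 54.8 and 49.0 sites per Mb in the outermost 250 kb to 21.5, 19.7, 19.5 and 19.0 beyond 5 Mb, in the order *Epi/FB:dnAP-1* replicates 1 and 2 and control replicates 1 and 2. A smaller rise to 41.9 sites per Mb lay between 2.25 and 2.5 Mb.

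**Figure D1:**
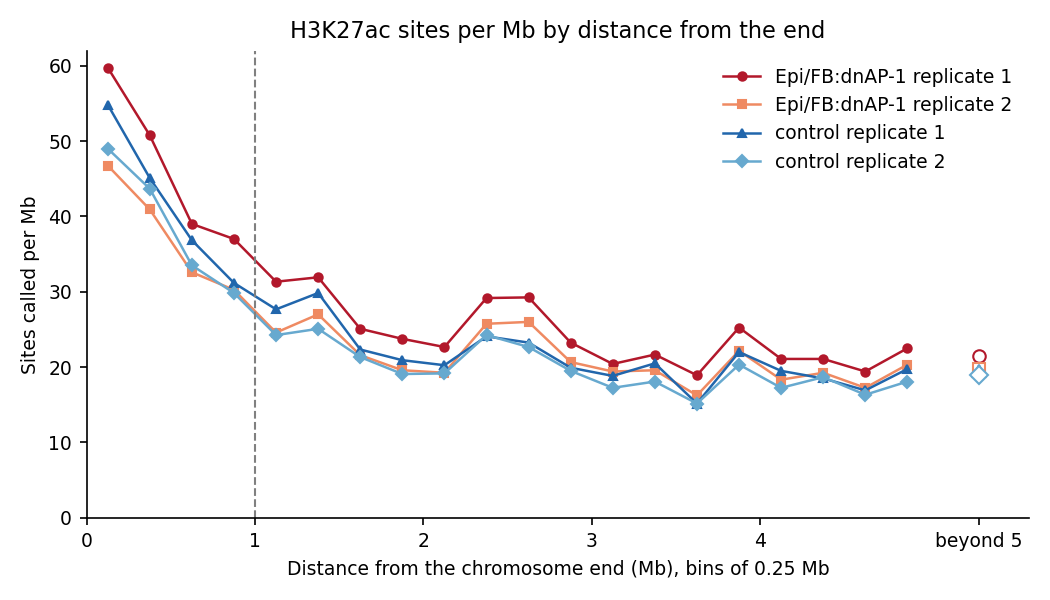
Sites called per Mb in each of the 4 peak lists (y axis) by distance from the chromosome end in bins of 0.25 Mb (x axis), summed over 48 ends; open symbols give the density beyond 5 Mb and the dashed line marks 1 Mb. All 4 lists are highest in the first bin, at 46.8 to 59.8 sites per Mb, and lie between 19.0 and 21.5 beyond 5 Mb.

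Every end took part. The chromosomes were cut into windows of 1 Mb, and the 48 end windows held 40 to 93 sites, with a median of 62.5. The 1210 interior windows held 2 to 88 sites, with a median of 32. All 48 end windows lay above the interior median, 35 of 48 lay above the 95th percentile of interior windows (56 sites), and only 20 interior windows (1.65%) reached the median of the ends. The ratio of ends to elsewhere was above 1 on 24 of 24 chromosomes, from 1.46 on chromosome 3 to 3.06 on chromosome 1, with a median of 1.98. Most sites were found at the lower end of chromosome 1 (93), its upper end (83) and the lower end of chromosome 2 (78). Fewest were found at the lower end of chromosome 8 (40) and of chromosome 24 (46), and the upper ends of chromosomes 24 and 25 had 49 each.

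**Figure D2:**
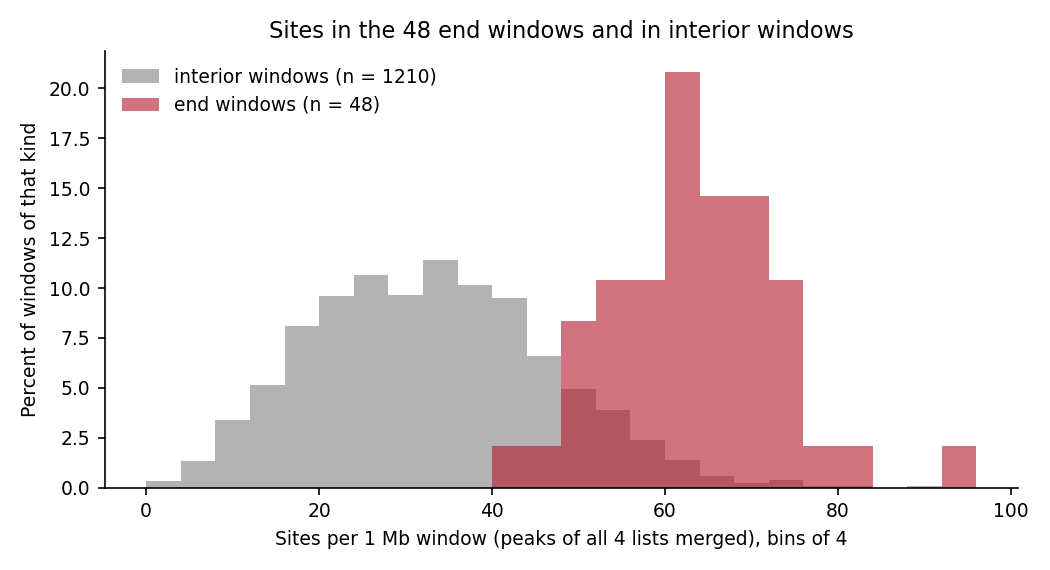
Percent of windows (y axis) by the number of sites in a 1 Mb window, in bins of 4 sites (x axis), for 48 end windows (red) and 1210 interior windows (grey), over sites merged from all 4 lists. The end windows spread around a median of 62.5 sites and the interior windows around 32.

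Peaks at the ends were wider as well as closer together. Median peak width at the ends was 3010 and 3586.5 bp in replicates 1 and 2 of *Epi/FB:dnAP-1* and 3561 and 2891.5 bp in those of the controls. Elsewhere it was 2294, 2879, 3145 and 2669 bp in the same order. Ends exceeded the rest in every library, by 716 and 707.5 bp for *Epi/FB:dnAP-1* and by 416 and 222.5 bp for the controls. The mean difference was 515.5 ± 240.0 bp (SD, n = 4; exact permutation test with sign flips, p = 0.13, the smallest possible). Both *Epi/FB:dnAP-1* values lay above both control values, by 392.5 bp on average, and that order carried the smallest p that 2 against 2 libraries can give (exact permutation test, p = 0.33). Merged sites were wider at the ends of 24 of 24 chromosomes, with a median of 3959.5 bp against 3412.5 bp elsewhere, and 266 end sites (8.83%) exceeded 10 kb against 3.30% elsewhere. The widest, chr1:8936-67421 (GRCz11), ran over 58486 bp and had maxima of 57.80 and 59.84 for *Epi/FB:dnAP-1* versus 44.10 and 45.54 for the controls. *Epi/FB:dnAP-1* replicate 1 had 1 peak in it, whereas control replicate 2 had 8. Gaps between neighbouring end sites had a median of 4790 bp against 8884 bp elsewhere. Stretches of over 100 kb without a site made up 0.573% of the gaps at ends (17 gaps) and 5.80% elsewhere.

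Together, number and width made the covered share of the ends much larger. Peaks covered 20.8% and 19.0% of the end regions in replicates 1 and 2 of *Epi/FB:dnAP-1* and 20.5% and 15.7% in those of the controls. Elsewhere they covered 6.53%, 7.27%, 7.48% and 6.30%. The ratios were 3.19, 2.62, 2.74 and 2.49 (mean 2.76 ± 0.30, SD, n = 4; exact permutation test with sign flips, p = 0.13). Control replicate 2 had the lowest coverage at 43 of 48 ends. Both *Epi/FB:dnAP-1* lists covered more than both control lists at 12 ends (25%), against 18.9% of all 1258 windows, and less than both at 0 ends, against 18.4% of windows.

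Peaks at the ends were wider than elsewhere, but their median maxima were not higher. Signal was compared as the maximum coverage of a peak after the scaling applied by the authors, taken as log2 minus the median of its own list, which is called list-centred below. Median maxima at the ends were 17.68 and 21.76 in replicates 1 and 2 of *Epi/FB:dnAP-1* and 18.90 and 17.94 in those of the controls, against 23.80, 25.84, 21.42 and 19.32 elsewhere. The list-centred difference between ends and elsewhere was -0.42 and -0.16 for *Epi/FB:dnAP-1* versus -0.18 and -0.11 for the controls. It was below 0 in 4 of 4 libraries, with a mean of -0.22 ± 0.14 on the log2 scale (SD, n = 4; exact permutation test with sign flips, p = 0.13). *Epi/FB:dnAP-1* replicate 1 had the lowest value and the other 3 lay close together. The group means differed by -0.14 (exact permutation test, p = 0.667), and the groups overlapped. Over single chromosomes, ends were lower on 22 and 19 of 24 in *Epi/FB:dnAP-1* replicates 1 and 2 but on only 13 and 14 of 24 in the controls. In the outermost 250 kb, list-centred medians were -0.44 and -0.12 for *Epi/FB:dnAP-1* versus -0.087 and 0.10 for the controls. Control replicate 2 was thus not lower nearest the ends.

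By quartile of peak maximum within each list, the groups had different shapes. Peaks of the lowest quartile were 3.52 and 2.92 times as dense at ends as elsewhere in replicates 1 and 2 of *Epi/FB:dnAP-1*, and 2.42 and 2.23 times in those of the controls. They made up 37.7% and 36.1% of the end peaks for *Epi/FB:dnAP-1* but only 26.6% and 25.2% for the controls. Low peaks were thus in excess in both *Epi/FB:dnAP-1* lists and near an even share (25%) in both control lists. Even peaks of the highest quartile were denser at ends in every list, by 1.82 and 1.74 times in *Epi/FB:dnAP-1* and by 2.00 and 2.05 times in the controls. By width, the widest quartile had ratios of 4.17, 3.12, 3.28 and 3.07 and the narrowest 1.18, 1.12, 1.52 and 1.78. The spread of peak maxima over a whole list moved with this difference, as the SD of the log2 maximum was 1.09 and 1.06 for *Epi/FB:dnAP-1* versus 0.90 and 0.84 for the controls, and its part in the result was not tested.

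**Figure D3:**
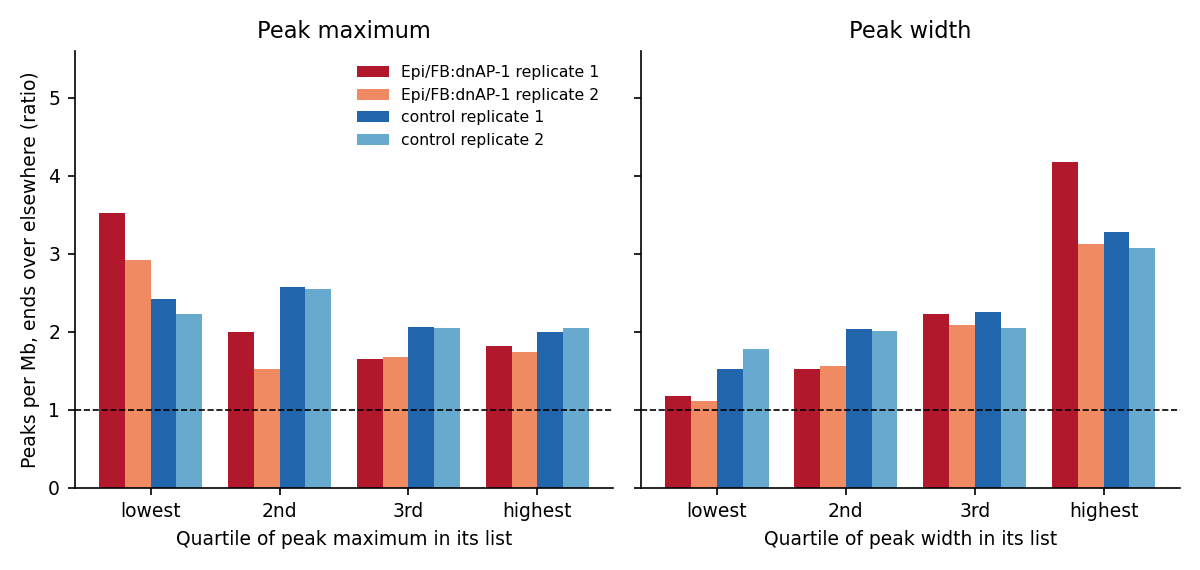
Peaks per Mb at chromosome ends divided by peaks per Mb elsewhere (y axis) for each quartile of peak maximum (left) and of peak width (right) within a list, with 1 bar for each of the 4 lists; the dashed line marks a ratio of 1. The widest quartile reaches 3.07 to 4.17, and the lowest quartile of maximum separates the *Epi/FB:dnAP-1* lists (3.52 and 2.92) from the control lists (2.42 and 2.23).

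Taken over the full 1 Mb, end sites recurred between lists somewhat more often than other sites. All 4 lists called 38.0% of them (1146 sites; 95% Wilson interval 36.3 to 39.8) and 34.5% of the sites elsewhere (34.0 to 35.0), against 33.9% over the whole series. The intervals cover counting error over sites only, which are not independent replicates. Sites called in a single list made up 29.6% at ends and 35.4% elsewhere. The share in all 4 lists was higher at the ends of 17 of 24 chromosomes. It fell from 44.0% in the outermost 250 kb to 40.6%, 33.1% and 31.7% in the next bins of 250 kb. From 500 kb to 1 Mb it thus lay below the 34.5% elsewhere. Peaks that cover more of a region also meet more easily by overlap, and the part of that in these shares was not tested. Of the end sites called in either list of a group, both lists called 67.1% in *Epi/FB:dnAP-1* and 56.0% in the controls, against 68.0% and 51.5% elsewhere.

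Sites particular to 1 group were not more common at ends. Sites present in both control lists but in neither *Epi/FB:dnAP-1* list, here control-only, numbered 83 at the ends (2.75%), against 2.76% elsewhere and 3.04% over the series. The reverse kind, *Epi/FB:dnAP-1*-only, numbered 171 (5.67%), against 7.37% elsewhere and 7.64% over the series. They were low peaks, with a median percentile of maximum within their lists of 25.7 and 22.8. The highest control-only end site was chr19:160964-164897, with maxima of 31.50 and 27.60 in control replicates 1 and 2, followed by chr2:59254306-59257937 (28.98 and 26.22) and chr18:50968528-50969910 (28.98 and 24.84). The highest *Epi/FB:dnAP-1*-only end sites were chr21:97188-97996 (63.24 and 57.80 in replicates 1 and 2 of *Epi/FB:dnAP-1*), chr1:797012-798067 (66.64 and 48.96) and chr5:71765356-71766123 (59.84 and 50.32). These were 809, 1056 and 768 bp wide, narrower than the control-only examples of 3934, 3632 and 1383 bp. All 4 lists define these classes, so their values are a description and no test was run.

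AP-1 inhibition was set against control at the 1146 end sites called in all 4 lists, within a limma fit over all 17511 such sites of the series. Of the end sites, 156 (13.6%) passed an adjusted p of 0.05, against 9.22% of all sites tested. Lower maxima in *Epi/FB:dnAP-1* were called at 136 end sites (11.9%), against 6.76% of all sites tested and 5.19% elsewhere on these chromosomes. Higher maxima were called at 20 (1.75%), against 2.46% and 2.68%. The median difference over all end sites was near 0 (-0.0024 on the log2 scale), below that over all sites tested (0.09) and elsewhere (0.12). Differences at the 136 lower sites ran from -2.97 to -0.76 with a median of -1.09, and at the 20 higher sites from 0.76 to 1.75 with a median of 0.87. Without regard to the test, both *Epi/FB:dnAP-1* values lay below both control values at 331 end sites (28.9%, against 21.9% of all tested) and above both at 300 (26.2%, against 32.3%).

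The scale set the split between lower and higher calls. On the deposited values without list-centring, 91 end sites were called higher (7.94%, against 10.2% of all sites tested) and 78 lower (6.81%, against 3.83%), and all 78 were among the 136. The median over all sites tested was then 0.34, and it was 1.29 when values were counted in steps of coverage, where 921 end sites were called higher (80.4%, against 88.4%) and 7 lower (0.611%, against 0.188%). Directions given here are therefore relative to the median peak of each list. After quantile normalization between lists, 1 end site was called higher (0.0873%, against 0.286%) and 28 lower (2.44%, against 1.56%). On the mean signal per base limma called 0 end sites higher and 1 lower (0.0873%, against 0.0171%). At an unadjusted p under 0.05, 45 were higher (3.93%, against 7.51% of all sites tested) and 151 lower (13.2%, against 9.13%). Of the 136 lower sites 134, and of the 20 higher sites 12, kept the sign of their difference on that measure. It comes from the same peaks, and its median difference was -0.13 over all end sites, against 0.0070 over all sites tested. Without *Epi/FB:dnAP-1* replicate 2, limma called 55 end sites (4.2%, against 3.53% of all sites tested), 52 of them lower (3.97%, against 3.00%). The shares of calls thus lay closer together than with all 4 libraries, but the median differences did not. In that fit the median difference was 0.0302 over end sites and 0.126 over all sites tested. With all 4 libraries it was -0.0024 and 0.09.

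Lower calls were most frequent among low peaks. Of the 372 end sites in the lowest quartile of mean level over all sites tested, a split chosen after the data were seen, 100 (26.9%) were called lower, against 14.6% of the sites elsewhere in that quartile. In the other quartiles, from low to high, the shares were 3.94%, 6.18% and 3.83% at ends and 2.54%, 1.54% and 2.85% elsewhere. End sites were also more often in the lowest quartile, at 32.5%. These shares move with the wider spread of maxima in the *Epi/FB:dnAP-1* lists given above. The lowest list-centred median of any 1 Mb window was -2.09 and -2.40 in replicates 1 and 2 of *Epi/FB:dnAP-1*. It was -1.28 and -1.49 in those of the controls. A site low in every list can thus have a difference below 0. At the outermost site of the upper end of chromosome 6, not called, maxima were 7.48 and 8.16 against 8.82 and 9.66 (-0.49). The part of spread and low values in the calls was not tested. Lower calls came from 43 of 48 ends, with at most 7 at the upper ends of chromosomes 15 and 20, and higher calls from 17 ends with at most 2. By distance, another split chosen afterwards, lower calls made up 20.2% of 104 tested sites within 50 kb of the end, 13.0% from 50 to 250 kb, 8.81% to 500 kb, 12.8% to 750 kb and 9.63% to 1 Mb. As window medians, list-centred maxima of both *Epi/FB:dnAP-1* lists lay below both controls at 24 of 48 ends (50%), against 18.5% of all windows, and above both at 4 ends (8.33%), against 23.2%.

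**Figure D4:**
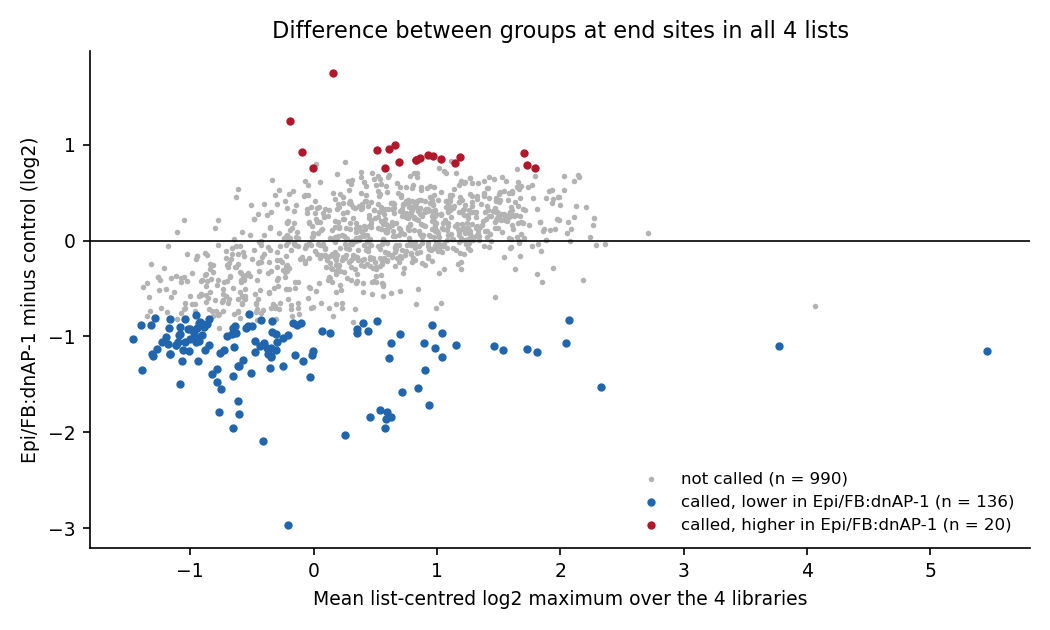
Difference between *Epi/FB:dnAP-1* and control in list-centred log2 maximum (y axis) against the mean level over the 4 libraries (x axis) for 1146 end sites, 1 point each, with sites called lower (136) in blue and higher (20) in red. Of the 136 lower calls, 100 lie in the lowest quartile of level.

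The 5 largest falls were picked among end sites whose groups did not overlap. At chr1:587403-591339, the maximum was 6.80 and 8.16 in replicates 1 and 2 of *Epi/FB:dnAP-1* and 56.70 and 42.78 in those of the controls. The difference was -2.97 ± 0.24 on the log2 scale (SE; limma, adjusted p = 1.05e-06), the lowest of any end site. Both *Epi/FB:dnAP-1* maxima there were low in their lists (percentiles 4.09 and 6.62). On the mean signal per base the difference was -1.20 (limma adjusted p = 0.0958). At chr20:55170971-55201331, a block of 30361 bp at the very end of the chromosome, maxima were 8.16 and 9.52 against 31.50 and 31.74 (-2.09 ± 0.23, adjusted p = 0.000106). Within this block the *Epi/FB:dnAP-1* lists had 2 and 3 peaks and each control list had 1. It was the only end site still called on the mean signal per base (-2.12, adjusted p = 0.0475). The first 6641 bp with a peak on chromosome 25, chr25:3573-10213, had 13.60 and 14.96 against 52.92 and 45.54 (-2.03). At chr22:27227-30495 maxima were 19.04 and 17.68 against 56.70 and 63.48 (-1.95), and at chr8:569197-575050 they were 7.48 and 8.16 against 27.72 and 23.46 (-1.95). These 5 stayed called when any single library was left out and after quantile normalization.

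Rises were smaller. The largest was at chr11:269643-273725, where the maximum was 51.68 and 46.92 for *Epi/FB:dnAP-1* versus 13.86 and 11.04 for the controls (1.75 ± 0.24, SE; limma, adjusted p = 0.000216). It also stayed called without any single library and after quantile normalization. Next came chr20:54657841-54668766, with 40.12 and 26.52 against 8.82 and 15.18 (1.25, adjusted p = 0.012), and chr19:48144364-48148807, with 52.36 and 55.76 against 28.98 and 17.94 (1.00, adjusted p = 0.0145). Each of these 2 sites lost its call without at least 2 of the single libraries. The same was true of chr8:53921387-53934818 (55.76 and 47.60 against 32.76 and 15.18; 0.96) and of chr19:770033-773154 (51.68 and 44.20 against 26.46 and 16.56; 0.95). On the mean signal per base the difference at the chromosome 8 site turned to -0.11.

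Of the 5 highest end sites, 3 stood well above the rest. At chr17:53384663-53384904, only 242 bp wide, the maximum was 748.00 and 679.32 for *Epi/FB:dnAP-1* versus 1336.86 and 1330.32 for the controls, where the median peak of a list had 19.32 to 25.16. Its difference was -1.15 (limma, adjusted p = 0.00441), a call lost without *Epi/FB:dnAP-1* replicate 2 and after quantile normalization (-0.034). A second high site, chr17:53380677-53383783, lay beside it, with 380.80, 267.92, 507.78 and 367.08, where the deposited maxima of the groups overlapped but the list-centred values did not (-0.68, adjusted p = 0.107). The outermost site of the upper end of chromosome 3, chr3:62624457-62628488, had 234.60 and 216.24 against 398.16 and 414.00 (-1.10, adjusted p = 0.00616), a call also lost without *Epi/FB:dnAP-1* replicate 2 and a direction that turned after quantile normalization (0.14) and on the mean signal per base (0.47). The groups did not differ past the threshold at chr8:14722-23366 (192.44 and 136.68 against 129.78 and 129.72; 0.076, adjusted p = 0.883) and at chr2:59302009-59304699 (119.00 and 126.48 against 105.84 and 106.26; -0.035, adjusted p = 0.941).

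The 48 outermost sites, 1 at each end, were 930 to 30361 bp wide with a median of 3697 bp. All 4 lists called 26 of them (54.2%, against 38.0% of all end sites), while 4 were in 3 lists, 6 in 2 and 12 (25%, against 29.6%) in 1. Of the 12 in a single list, 6 were at lower ends (chromosomes 5, 11, 12, 21, 23 and 24) and 6 at upper ends (chromosomes 10, 11, 12, 16, 22 and 24), with maxima from 6.12 to 25.16. Only control lists, 1 or both, called 7 of the 48 (14.6%, against 24% of all sites of the series), and only *Epi/FB:dnAP-1* lists called 9 (18.8%, against 21.6%). Among the 26 tested, 9 (34.6%, against 6.76% of all sites tested) were lower in *Epi/FB:dnAP-1* and 0 higher, where the median difference was -0.49. Quantile normalization left 4 of these calls and the mean signal per base 1. On the latter 21 of 26 differences were below 0, with a median of -0.32, where the median over all tested end sites was -0.13. Besides those of chromosomes 3, 20 and 25 above, the 9 were at both ends of chromosome 7, the upper end of chromosome 9 and the lower ends of chromosomes 10, 15 and 16. At the lower end of chromosome 15 the maximum was 69.36 and 68.68 for *Epi/FB:dnAP-1* against 115.92 and 128.34 for the controls. At the lower end of chromosome 10 it was 41.48 and 32.64 against 71.82 and 60.72. At the upper end of chromosome 7 it was 8.16 and 12.24 against 22.68 and 19.32. The high values of the chromosome 15 site and the low values of the last show that lower calls at the extreme ends were found at both levels.

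Genes were placed at end sites through this list of open chromatin regions (OCRs), each assigned to a gene by the study, of which 1999 rows were used here, taken as GRCz11 and with none on chromosomes 8 and 9. An OCR of this list lay in 47 end sites, for 44 genes, and 30 of these sites were called in all 4 lists. These sites were wide, with a median of 8104 bp. Of the 30, limma called 2 lower (6.67%, against 6.76% of all sites tested) and 2 higher (6.67%, against 2.46%) in *Epi/FB:dnAP-1*, and their median difference was -0.052, against 0.09 over all sites tested. The differences ran from -1.19 to 0.91.

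The 2 sites with lower calls were those of *sox9b* and *med17*. *sox9b* encodes a SRY-box transcription factor known from cartilage and neural crest, and its site, chr3:62529257-62537455, had maxima of 18.36 and 13.60 in replicates 1 and 2 of *Epi/FB:dnAP-1* and 35.28 and 26.22 in those of the controls. The maxima of the groups did not overlap, and the difference was -1.19 ± 0.25 (SE; limma, adjusted p = 0.00543). On the mean signal per base the groups overlapped, with 7.72 and 2.83 against 5.76 and 5.41 (-0.22, limma adjusted p = 0.839). *med17* encodes a subunit of Mediator, the complex that links enhancer-bound factors to RNA polymerase II. Its site, chr15:39428-68225, had 55.76 and 52.36 against 100.80 and 99.36 (-1.13 ± 0.23, adjusted p = 0.00457), with replicates closer to each other than at *sox9b*. On the mean signal per base the *med17* difference was -0.32 (limma adjusted p = 0.528). Both lost their call without *Epi/FB:dnAP-1* replicate 2, and *sox9b* also after quantile normalization.

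Higher calls were made at *sox4b* and *dio3a*. *sox4b* encodes another SRY-box factor, and its site, chr16:78903-115260, had 65.96 and 59.16 for *Epi/FB:dnAP-1* against 36.54 and 22.08 for the controls (0.89 ± 0.25, SE; limma, adjusted p = 0.0322). *dio3a* encodes a type 3 deiodinase, which inactivates thyroid hormone. Its site, chr17:774518-804826, had 118.32 and 98.60 against 60.48 and 38.64 (0.91 ± 0.25, adjusted p = 0.028), among the highest maxima of the gene sites. On the mean signal per base the *dio3a* difference was -0.15. Each of these 2 lost its call without either *Epi/FB:dnAP-1* replicate, without control replicate 2 and after quantile normalization.

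The other 26 gene sites did not pass the test. Among genes tied to signalling, *nppc*, which encodes C-type natriuretic peptide, had 15.64 for both *Epi/FB:dnAP-1* libraries and 11.34 and 16.56 for the controls at chr22:38577361-38582267 (-0.055, limma adjusted p = 0.918). At *map2k4b*, which encodes a kinase upstream of JNK, maxima were 37.40 and 27.20 against 18.90 and 19.32 (0.49, adjusted p = 0.234), so that the groups were apart but the difference missed the threshold. *rln*, which encodes the hormone relaxin, had 70.72 and 85.68 against 57.96 and 51.06 (0.27). Of transcription factors, *june*, named as a Jun family gene, had 27.20 and 29.92 against 22.68 and 28.98 (-0.091), and *srfb*, a serum response factor gene, had 37.40 and 25.84 against 34.02 and 26.22 (-0.19). In both, the groups overlapped. *irf1b*, an interferon regulatory factor gene, had 55.76 and 56.44 against 50.40 and 46.92 (-0.039), and *lbh*, a cofactor gene named for limb bud and heart, had 20.40 and 25.16 against 18.90 and 20.70 (-0.05). The matrix enzyme gene *loxl1*, a lysyl oxidase that crosslinks elastin, had 45.56 and 47.60 against 34.02 and 23.46 (0.48, adjusted p = 0.229). Among the highest gene sites was *gmppb*, whose enzyme makes GDP-mannose, with 113.56 and 125.80 against 84.42 and 73.14 (0.36, adjusted p = 0.354). Deposited maxima of *Epi/FB:dnAP-1* lay above both controls at *loxl1*, *gmppb*, *rln* and *irf1b*, where the list-centred differences were smaller since the median peak was also higher in *Epi/FB:dnAP-1*.

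Another 17 gene sites were missing from at least 1 list, 4 of them called in 3 lists, 7 in 2 and 6 in 1. The site at *srebf1*, a regulator of sterol and fatty acid synthesis, was called in both *Epi/FB:dnAP-1* lists (22.44 and 17.00) and in control replicate 1 (27.72). That of *cyp51*, a sterol demethylase gene, had 18.36, 10.20 and 11.34 in the same libraries. The site at *mafb*, a factor known from macrophage differentiation, was called in replicate 1 of *Epi/FB:dnAP-1* (14.28) and replicate 2 of the controls (8.28). *nt5e*, which encodes an ectonucleotidase that makes adenosine, had a site in the *Epi/FB:dnAP-1* lists only (7.48 and 8.84), and *l1camb*, a neural adhesion molecule gene, in the control lists only (23.94 and 9.66). Among sites in a single list were those of *ccnd3*, a cyclin D gene (12.24 in *Epi/FB:dnAP-1* replicate 1), and *scd*, a desaturase gene (15.12 in control replicate 1). Of 23 genes of the study and AP-1 subunits looked up in the same way, 5 had an OCR among the rows used. Among these 23, *nppc* alone had one in an end site. The Jun family gene *june*, whose end site is given above, was not among the 23.

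**Figure D5:**
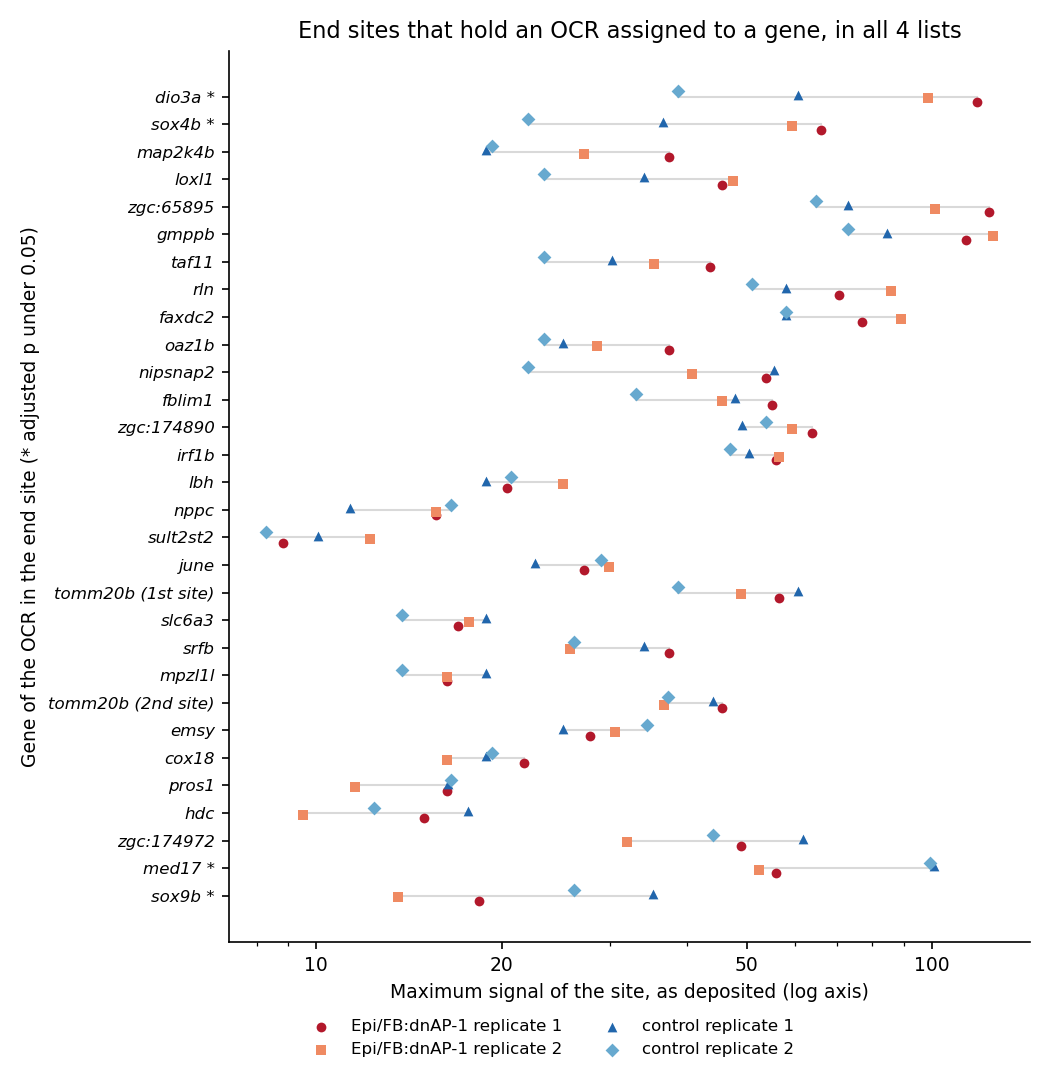
Maximum signal as deposited (x axis, log scale) in each of the 4 libraries for the 30 end sites called in all 4 lists that hold an OCR assigned to a gene (y axis), ordered by the list-centred difference between groups; an asterisk marks an adjusted p under 0.05. Both *Epi/FB:dnAP-1* values lie below both control values at *sox9b* and *med17* and above them at *sox4b* and *dio3a*.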

How the data were processed

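H3K27ac CUT&Tag libraries of nonCMs at 7 days after injury (2 *Epi/FB:dnAP-1*, 2 control) were grouped by their labels. Reads were trimmed (cutadapt 2.7) and mapped to GRCz11 by the authors (Bowtie2 2.2.5, default options), who dropped unmapped reads with SAMtools 1.9 and duplicates with Picard and scaled coverage (bedtools) by a ChIPseqSpikeFree factor. The deposited lists, 1 per library without pooling, hold signal: scaled coverage summed over a peak, and its maximum. Their columns are those of SEACR, run at 0.02, which keeps the top signal blocks of each library. The lists held 38429 and 32978 (*Epi/FB:dnAP-1*) and 32638 and 33076 (control) peaks. They give no read totals, so depth is unknown and no counting interval of signal was given. Every maximum, read to 2 decimals, is a whole multiple of 0.68, 0.68, 1.26 and 1.38 in the same order, and the alternative in steps divides by these.

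Peaks sharing 1 bp were merged into sites, and the highest peak of a list at a site gave its maximum. Log2 maxima minus the median of each list over 24 chromosomes were fitted with limma 3.58.1 (R 4.3.3) at sites in all 4 lists, with Benjamini-Hochberg adjustment over all of them. Values per library were compared with exact permutation tests. Scripts ran in Python 3.11.15 with pandas 2.3.3, scipy 1.17.1, matplotlib 3.10.9 and numpy 2.4.6. In a check on simulated data with 200 sites changed by a log2 of 3 among 17511, the fit recovered 180 and made 8 false calls. That change is larger than any difference called at end sites, which ran from -2.97 to 1.75. Recovery of changes of the sizes called was not tested. Alternatives were the distance, overlap and merging rules, thresholds on peaks, scalings, mean signal per base and each library left out.

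Named were the 5 highest end sites, the 5 largest rises and falls with separate groups, the 3 highest sites in each group-specific class, the 3 ends with most and fewest sites, the widest site, outermost sites in 1 list, and genes with an OCR in a site. Of those genes, the ones described, and the outermost sites given with values, were picked after their values were seen. Of 44 such gene names, 43 were in a table of GRCz12tu, used for names only. The OCR coordinates were taken as GRCz11, with which 626 of 1999 OCRs met a site, against 364 with the table's second coordinates. Members and lists were chosen with earlier results of these data known. A GRCz11 sequence and annotation were not used here, so no sequence or exon is given.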

Additional observations from a re-analysis of the deposited data

How the results depend on the processing

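End sites stayed denser and wider than the rest under every alternative run, with density ratios of 1.65 to 2.36 and width differences of 340.4 to 958 bp. The ratio was 2.75 for the percent of bases covered. The mean over libraries of their list-centred maximum stayed lower, at -0.27 to -0.12. Within 0.5 Mb, where this mean was -0.12, not every library was lower (exact permutation test with sign flips, p = 0.5). Nor was every library lower within 2 Mb (-0.14), with peaks within 500 bp merged (-0.15) or with equal numbers of peaks per list (-0.19). For each of these 3 rules the exact permutation test with sign flips gave p = 0.25. Permutation tests of 4 libraries could not pass 0.05 under any of them. The density ratio of *Epi/FB:dnAP-1* minus control turned to 0.284 on the percent of bases covered and ran from -0.195 to 0.0473 with a library left out, above 0 without *Epi/FB:dnAP-1* replicate 2. The excess of end sites called in all 4 lists was 7.98 percentage points within 0.5 Mb. With a library left out, the excess of end sites called in all remaining lists was 1.39 to 4.77 points. Control-only end sites numbered 41 of 1710 within 0.5 Mb, 140 of 4942 within 2 Mb, 46 of 1498 at lower ends from base 1 and 54 of 1655 in the top 50% of each list. With a library left out they numbered 119 to 389, among 2817 to 3074 end sites. Elsewhere, control-only sites numbered 1142, 1043, 1100, 555 and 1612 to 5682 in the same order. *Epi/FB:dnAP-1*-only end sites numbered 81, 300, 89, 82 and 267 to 493 in the same order, against 3030, 2811, 2940, 1412 and 5024 to 7019 elsewhere. These counts follow the length and the number of lists used. Sites elsewhere were far more numerous (39912 under the 1 Mb rule), so the counts do not compare ends with elsewhere.

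Limma called 928 end sites on values in steps (81.0%, against 88.6% of all sites tested) and 29 after quantile normalization (2.53%, against 1.85%). On the mean signal per base it called 1 (0.0873%, against 0.0171%, or 3 of all sites). At an unadjusted p under 0.05, 45 end sites were higher (3.93%, against 7.51%) and 151 lower (13.2%, against 9.13%). Within 0.5 Mb it called 101 (13.9%, against 9.22%), and in the top 50% it called 98 (13.4%, against 9.01%). Calls ran from 55 (without *Epi/FB:dnAP-1* replicate 2) to 211 (without control replicate 1). In these fits the group left with 1 library was taken to vary like the other. These fits tested 1206 to 1346 end sites, so their counts alone do not compare ends with other sites. Leaving out *Epi/FB:dnAP-1* replicate 1 or 2 gave median differences over end sites of -0.0997 and 0.0302, against 0.0139 and 0.126 over all sites tested. Leaving out control replicate 1 or 2 gave 0.0134 and -0.12, against 0.0975 and 0.0153. With the replicate block, limma called 197 end sites (17.2%, against 12.4% of all sites tested), including all 156. Of these, 34 were higher (2.97%, against 4.21%) and 163 lower (14.2%, against 8.21%). Deviations of replicate 1 from the group mean had a correlation of 0.035 between the groups (-0.039 at end sites). With so few libraries this cannot decide whether the replicate numbers mark a shared batch, which is not known.

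On the mean signal per base, the difference turned at chr1:8936 (-0.0082), *map2k4b* (-0.28), *srfb* (0.036), chr17:53380677 (0.90), *dio3a* (-0.15), chr2:59302009 (0.26), *irf1b* (0.16), chr3:62624457 (0.47) and chr8:53921387 (-0.11). After quantile normalization it turned at chr1:8936 (-0.068), *lbh* (0.055), chr17:53380677 (0.57), *nppc* (0.31) and chr3:62624457 (0.14). Centring on sites in all 4 lists turned chr8:14722 (-0.034). In the top 50%, chr1:8936 (-0.012) and chr8:14722 (-0.082) turned, and 21 of 35 named sites gave a value there. Merging within 500 bp joined the outermost site of the upper end of chromosome 9 (-0.81) to a neighbour of higher level (0.61), and the joined site had 0.61. Without centring, deposited values turned *lbh* (0.20), *srfb* (0.058), chr2:59302009 (0.21), *irf1b* (0.21), *nppc* (0.19) and *june* (0.15). Values in steps, with a median of 1.29 over all sites, turned these to 1.15, 1.01, 1.17, 1.16, 1.15 and 1.11, and also *med17* (0.066), *sox9b* (0.011), chr17:53380677 (0.52), chr17:53384663 (0.052), chr3:62624457 (0.11), and the outermost sites of chromosomes 7 (lower end, 0.10), 9 (0.39), 10 (0.11), 15 (0.13) and 16 (0.37). With a library left out, differences spanned 0 at *lbh* (-0.19 to 0.090), *srfb* (-0.52 to 0.14), chr2:59302009 (-0.11 to 0.042), *irf1b* (-0.092 to 0.013), *nppc* (-0.40 to 0.29), *gmppb* (-0.34 to 0.37), *june* (-0.55 to 0.16) and chr8:14722 (-0.23 to 0.38). The causes were not tested. Of 26 gene sites not called, 22 changed sign under some alternative. Depth is unknown, so an absent peak shows only that signal stayed under the threshold of a list.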

Other observations

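Chromosome 4 was left out above. Its lower and upper 1 Mb held 61 and 59 sites, within the range of the other ends, against 38.1 sites per Mb over the rest of the chromosome. Median site width was 3754 and 3974 bp at the ends and 3719.5 bp elsewhere on it, and 44.3% and 39.0% of the end sites were called in all 4 lists, against 27% of the other sites. At the lower end, list-centred log2 maxima were 0.47 and 0.18 in replicates 1 and 2 of *Epi/FB:dnAP-1* and -0.18 and 0.050 in those of the controls. At the upper end they were -0.50, -0.21, -0.13 and -0.16 in the same order, and elsewhere on the chromosome -0.63, -0.57, -0.39 and -0.35. Both ends were thus higher than the rest of chromosome 4 in all 4 libraries, whereas over the other chromosomes ends were lower than the rest in all 4.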
